A study of Musa acuminata AAA Group with 12 samples.

Results

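The genes described here are those whose loci lie on sequence that the Musa acuminata DH Pahang version 2 genome does not assign to a chromosome. Their identifiers start with Ma00_ and their loci carry the sequence name chrUn_random in the deposited tables. They number 543 of the 35273 rows, beside 34625 placed genes on chromosomes 1 to 11 and 104 rows on mitochondrial sequence. Membership was set by the identifier and not by any measured value. RNA was sequenced from fruit pulp of Cavendish banana, an AAA-group dessert banana, in 12 libraries that form 4 groups of 3 biological replicates. The groups were day 7 chitosan-coated fruit (7A), day 7 uncoated control fruit (7K), day 1 chitosan-coated fruit (1A) and day 1 uncoated control fruit (1K), with replicates a, b and c in each. Coated fruit had been dipped in a 1.25% chitosan solution, and all fruit, controls included, had been treated with ethylene to start ripening. No library from before ethylene treatment was analysed here.

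Unplaced sequence is what remains when the contigs of an assembly have been anchored to chromosomes. It is usually rich in repeats, in collapsed or alternative copies of other regions and in short contigs, and gene models on it are often short or fragmentary. In genome releases these contigs are commonly joined into a single artificial sequence, so a coordinate on it gives no position on a chromosome. Banana is a climacteric fruit, in which ethylene drives a coordinated change of gene expression as the pulp softens and starch turns to sugar. Chitosan, a polymer of glucosamine, forms an edible film on the peel and was applied in this study with the aim of slowing ripening. The deposited identifiers carry no gene names, and 0 of them matched the gene table at hand, which belongs to another banana assembly. Genes are therefore given by identifier and position, their functions are not described, and the pulp label could not be checked against marker genes.

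Expression was measured as FPKM, fragments mapped to a gene scaled by transcript length and by the library's mapped fragments, which the authors computed with Cufflinks. The confidence bounds deposited beside each FPKM imply between 6136363 fragments (7A_c) and 16553611 fragments (7K_a) per library. These implied numbers are not counts of the reads sequenced. In the read statistics of the study only 7K_a has more reads than 7A_c. From the read GC content that the study lists, the libraries were divided here into 5 with a lower value (7A_c, 7K_c, 1A_a, 1A_b and 1K_c) and 7 with a higher one. Each of the 4 groups holds both kinds, but 1A holds 2 lower-GC libraries and each other group holds 1. The GC content of reads can itself depend on which transcripts are abundant, so this grouping is not independent of expression. Values within it are given beside some of the results that it touches, and each of them rests on 1 or 2 libraries per treatment group. Each coated or control group is 3 libraries. Unless another fit is named, each p-value rests on a spread per gene that is estimated over all 4 groups of replicates together.

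Genes on unplaced sequence were detected less often than placed genes in 12 of 12 libraries. A gene counted as detected at an FPKM above 0. The share of the 543 genes detected was 52.9%, 52.9% and 44.8% in 7A, 55.3%, 56.5% and 49.9% in 7K, 48.3%, 47.0% and 52.1% in 1A, and 49.9%, 51.8% and 46.0% in 1K. Among placed genes the share detected lay between 66.1% and 74.2%. The difference was -20.5 percentage points on average and ran from -23.4 to -17.03 points. The identical direction held against each single chromosome, since the mean share detected over the 12 libraries was 50.6% on unplaced sequence and between 68.2% (chromosome 5) and 73.1% (chromosome 8) on the 11 chromosomes. At a limit of 1 FPKM in place of 0 the mean difference was -15.9 points.

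**Figure D1:**
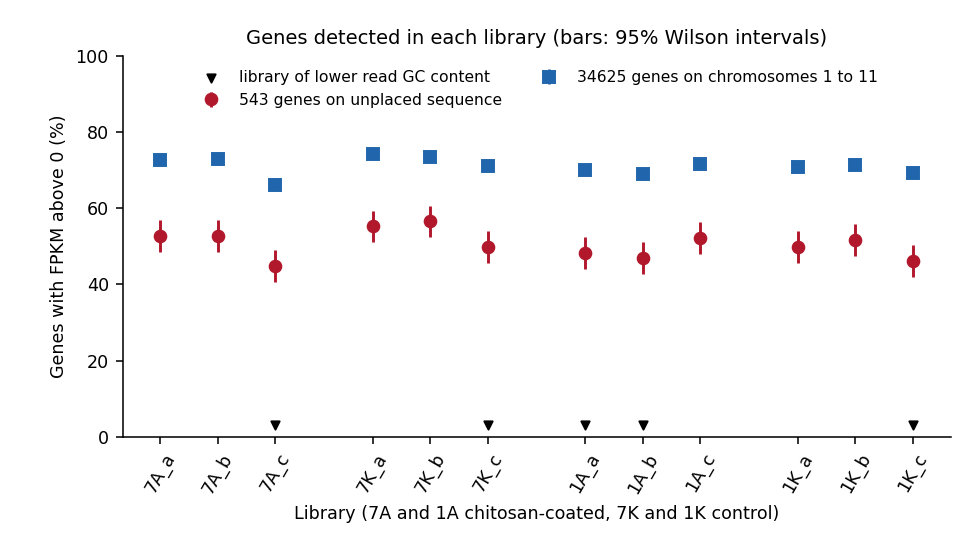
Percentage of genes with an FPKM above 0 in each of the 12 libraries (horizontal axis, in the order 7A, 7K, 1A and 1K), for genes on unplaced sequence and for placed genes, with the read GC group marked. In every library the unplaced genes, at 44.8% to 56.5%, sit below the placed genes, at 66.1% to 74.2%.

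Of the 543 genes, 171 (31.5%) were listed at 0 in all 12 libraries, against 14.9% of placed genes. A further 197 (36.3%) were detected in all 12 libraries, against 57.4% of placed genes, and 175 (32.2%) in some libraries only. The chromosomes each had between 13% and 17.6% of their genes at 0 throughout. Detected genes on unplaced sequence also had the lower level. The median of log2(FPKM + 1) over the detected genes of a library was 1.82 ± 0.10 for unplaced genes and 2.15 ± 0.19 for placed genes (SD over 12 libraries). An average of at least 10 FPKM over the libraries was reached by 84 unplaced genes (15.5%), against 22.8% of placed genes, and an average of at least 100 FPKM by 9.

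The loci were shorter than those of placed genes, which moves with detection. The median locus was 1565 bp on unplaced sequence and 2880 bp among placed genes. Loci under 500 bp made up 20.4% of the unplaced genes (111 genes) and 6.62% of the placed genes. At comparable length the difference in detection was smaller and had the same direction. Under 500 bp, 11.1% of unplaced and 22% of placed genes were detected on average over the libraries. Between 1000 and 2000 bp the shares were 44.6% and 55.2%, and between 2000 and 5000 bp they were 69.6% and 78.9%. At 5000 bp or more the shares came close, with 91.8% of the 91 unplaced genes and 93.8% of the placed genes detected, and the unplaced share was lower in 11 of 12 libraries. In the other length classes it was lower in 12 of 12. Over all loci of at least 1000 bp the difference in detection was -11.2 points. Of the longest unplaced loci, 85.7% reached the level needed for testing, against 83.2% of the longest placed loci.

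**Figure D2:**
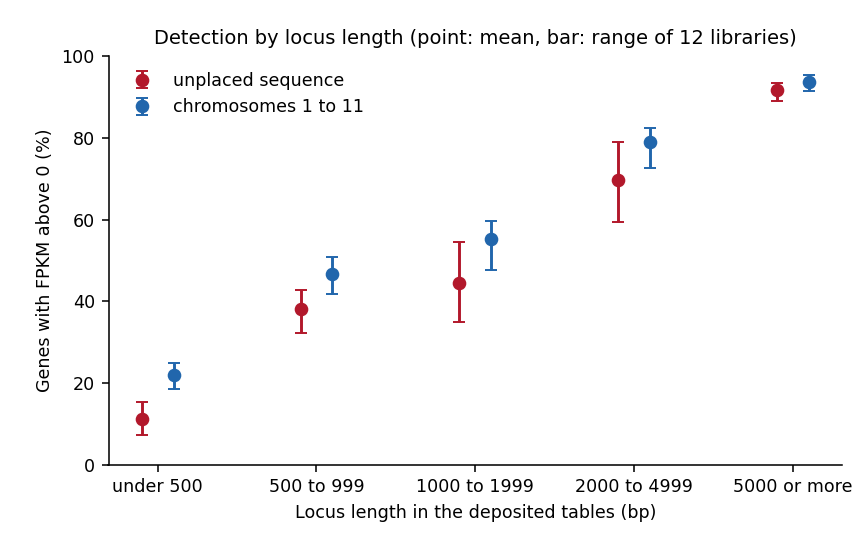
Mean percentage of genes detected over the 12 libraries by class of locus length in bp (horizontal axis), for unplaced and placed genes, with bars for the lowest and highest library. The gap runs from 11.1% against 22% below 500 bp to 91.8% against 93.8% at 5000 bp or more.

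Detection also varied along the joined sequence, whose genes begin at position 5983 and end at 46448639. In windows of 5 Mb, the highest share detected was 71.7% among the 40 genes between 20 and 25 Mb, of which 26 passed the filter for testing. The 121 genes of the first 5 Mb had 63.0% detected. Between 45 and 50 Mb, 23.0% of 25 genes were detected and 4 passed the filter, and between 40 and 45 Mb the share was 34.0%. Median locus length was 1884 bp in the window with the highest share and 838 bp in the last window.

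Libraries with lower read GC content had fewer genes detected, unplaced and placed alike. The unplaced share was 47.2% ± 2.0 in the 5 lower-GC libraries and 53.0% ± 2.2 in the 7 higher-GC libraries (SD), and the groups of libraries met at 49.9%. The placed share was 69.1% ± 1.87 and 72.5% ± 1.25 in the same sets of libraries. The lowest share was in 7A_c, which also had the fewest implied fragments, though not the fewest reads sequenced. By treatment the shares were 50.2% ± 4.7 in 7A, 53.9% ± 3.5 in 7K, 49.1% ± 2.7 in 1A and 49.2% ± 2.9 in 1K (SD, n = 3 each), and these ranges overlap. Day 7 exceeded day 1 by 4.67 points in control fruit. It did so by 5.07 points within the higher-GC libraries (2 per day) and by 3.87 points within the lower-GC libraries (1 per day). Placed genes moved the same way, by 2.44 points over all control libraries, 2.82 points within the higher-GC and 1.67 points within the lower-GC libraries. In coated fruit the difference was 1.04 points. It was 0.73 points within the higher-GC libraries (2 of 7A, 1 of 1A) and -2.86 points within the lower-GC libraries (1 of 7A, 2 of 1A). Among placed genes these 3 differences were 0.403, 1.27 and -3.46 points. These are descriptions of the libraries, without a test.

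A single gene held most of the FPKM from unplaced sequence. Ma00_g05330 has a locus of 675 bp at chrUn_random 46031447 to 46032121 and ranked between 2 and 14 among all genes of a library by FPKM. Its values were 7532, 7586 and 53322 FPKM in 7A, 7323, 9198 and 18948 FPKM in 7K, 21895, 29117 and 10956 FPKM in 1A, and 11350, 9513 and 15954 FPKM in 1K. The 5 lower-GC libraries held its 5 highest values. The 4 groups overlapped, and the gene passed no comparison (limma adjusted p = 0.892 for day in control fruit, 0.673 for day in coated fruit, 0.782 for coating at day 1 and 1.0 for coating at day 7). It made up between 64.2% and 87.0% of all FPKM assigned to the 543 genes, and between 0.979% and 6.01% of the FPKM sum of a library. Implied fragments gave it a smaller part in some libraries. In 7K_a it held 0.469% of them, where all unplaced genes held 1.03%, and in 7A_c 3.60%, where all unplaced genes held 4.09%.

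The share of the library's FPKM sum held by unplaced genes therefore followed this gene. It was 1.52%, 1.57% and 6.91% in 7A, 1.52%, 1.60% and 2.94% in 7K, 2.97%, 3.65% and 1.93% in 1A, and 1.85%, 1.58% and 2.12% in 1K. All 5 lower-GC libraries, at 2.12% to 6.91%, lay above all 7 higher-GC libraries, at 1.52% to 1.93%. The part of read GC content or of fragments shared with other loci in this gene's level was not tested. Without it, the other unplaced genes held between 0.395% and 0.979% of the FPKM sum, 0.578% on average.

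**Figure D3:**
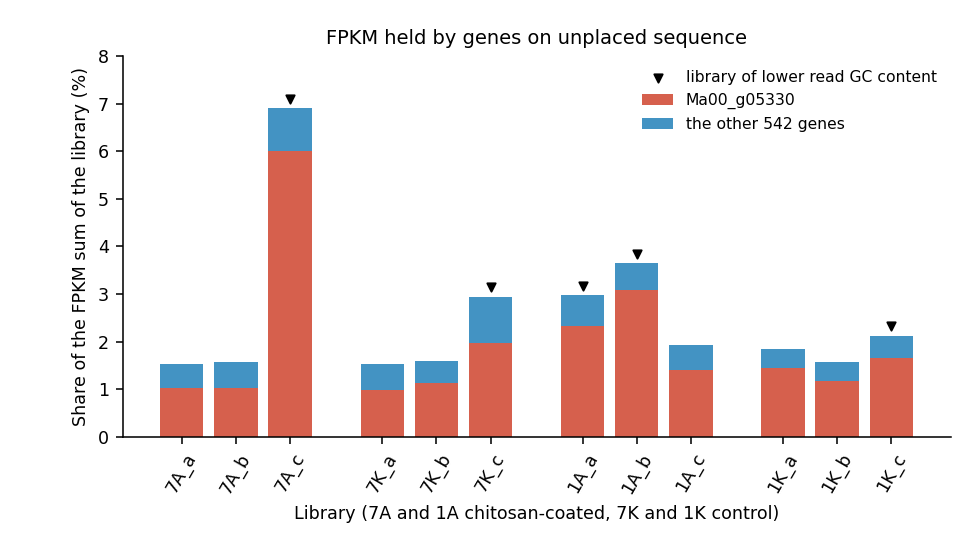
Percentage of each library's FPKM sum held by Ma00_g05330 and by the other unplaced genes, in the 12 libraries in the order 7A, 7K, 1A and 1K. The gene reaches 6.01% in 7A_c and is at 0.979% in 7K_a, whereas the other unplaced genes stay between 0.395% and 0.979%.

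Among the other abundant unplaced genes, spread between replicates was widest in 2 short loci. Ma00_g05290 (204 bp, 45872501 to 45872704) had 0, 455 and 225 FPKM in 7A, 0, 0 and 5106 FPKM in 7K, 1237, 121 and 0 FPKM in 1A, and 0, 2.62 and 828 FPKM in 1K. Replicates of a single group thus ran from 0 to 5106 FPKM (7K), and within-group SD on the log2(FPKM + 1) scale was 5.65, the highest of the 212 tested genes. Ma00_g03280 (285 bp, 28158054 to 28158338) followed at 3.65, with 227, 0 and 4045 FPKM in 7A, 326, 1.17 and 108 FPKM in 7K, 115, 465 and 108 FPKM in 1A, and 67.0, 106 and 143 FPKM in 1K. Ma00_g02040 (1094 bp) was listed above 0 only in 7A_b (30.8 FPKM), 7K_c (20.6 FPKM) and 1A_b (46.2 FPKM). Its confidence bounds imply at most 1.99 fragments in any of them.

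Ma00_g04240 (2234 bp, 35771122 to 35773355) and Ma00_g03180 (791 bp, 26419003 to 26419793) varied with the read GC group and passed no comparison of day or coating. Ma00_g04240 had 4.89, 9.02 and 0 FPKM in 7A, 9.66, 5.04 and 0 FPKM in 7K, 0.237, 0 and 15.2 FPKM in 1A, and 8.47, 11.3 and 0.244 FPKM in 1K. For Ma00_g03180 the values were 7.06, 6.26 and 0 FPKM in 7A, 5.95, 3.17 and 0 FPKM in 7K, 0, 0 and 4.05 FPKM in 1A, and 2.11, 2.81 and 0 FPKM in 1K. In both genes every lower-GC library lay below every higher-GC library. This held for 26 of the 212 tested unplaced genes (12.3%), against 15.6% of tested placed genes, and the reverse order held for 12 (5.66%), against 3.72% of placed genes. Ma00_g02040, Ma00_g04240 and Ma00_g03180 were chosen after their values were seen, from the order of within-group spread. Among the abundant genes, Ma00_g00620 (4961 bp, 1791125 to 1796085) had the same order, with 312, 317 and 127 FPKM in 7A, 337, 291 and 165 FPKM in 7K, 97.8, 94.3 and 182 FPKM in 1A, and 221, 225 and 130.2 FPKM in 1K, and it passed no comparison of day or coating. The median within-group SD was 0.376 over the tested unplaced genes and 0.343 over the tested placed genes, and it exceeded 1 in 15 unplaced genes (7.08%) and in 3.22% of placed genes.

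At the other end, some unplaced genes were among the steadily expressed. Ma00_g01020 (16959 bp, 3738219 to 3755177) had 42.9, 44.1 and 40.3 FPKM in 7A, 42.8, 42.3 and 43.9 FPKM in 7K, 40.3, 39.0 and 36.8 FPKM in 1A, and 51.1, 45.3 and 43.2 FPKM in 1K. Ma00_g00380 (11040 bp) averaged 20.7 ± 4.1 FPKM in 7A, 23.5 ± 0.64 in 7K, 21.99 ± 1.71 in 1A and 24.3 ± 1.62 in 1K (SD, n = 3 each). Ma00_g03440 (13003 bp) and Ma00_g00120 (11092 bp) completed the 4 with the smallest spread over the 12 libraries among those of at least 10 FPKM. The loci of these 4 genes run from 11040 to 16959 bp. None of them passed a comparison of day or coating, which follows largely from their choice by small spread over the same 12 libraries.

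Day was compared next, as day 7 minus day 1, separately in control and in coated fruit. For this, 212 of the 543 unplaced genes (39.0%) passed the filter of at least 1 FPKM in at least 3 libraries, against 56.3% of placed genes. The other unplaced genes were too low to test, so the counts describe the genes that passed and not all members. All 19746 genes that passed were fitted together on the log2(FPKM + 1) scale, where fold changes of low genes are understated. In pulp, fewer cells of a type and less RNA per cell cannot be told apart.

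In control fruit, 93 of the 212 genes (43.9%) differed between 7K and 1K at an adjusted p under 0.05, against 45.9% of all genes tested. Of these, 59 were higher at day 7 (background 31.1%) and 34 were lower (background 14.8%). The groups did not overlap in 115 genes (54.2%), against 54.7% of all tested. The median difference over the 212 genes was 0.30, against 0.37 over all genes. It was 0.368 within the higher-GC and 0.234 within the lower-GC libraries. Median-of-ratios scaling, which brought the median over all genes to 0.02, gave 38 higher and 52 lower, where 42.8% of all genes were called, and quantile normalization gave 41 and 50, where 45.0% were called. Same-numbered 7K and 1K libraries deviated together, as did other-numbered ones of the same read GC group. A fit of these 2 groups with the replicate number as a block called 150 genes, 99 higher and 51 lower, where 73.4% of all genes tested were called. This fit was added after the data were seen. In each case the share of unplaced genes called was near that of all genes.

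In coated fruit, 94 of the 212 genes (44.3%) differed between 7A and 1A, against 47.3% of all genes tested. Here 57 were higher at day 7 (background 29.2%) and 37 were lower (background 18.2%), and the groups did not overlap in 105 genes (49.5%, background 50.6%). The median difference was 0.30, against 0.34 over all genes. It was 0.261 within the higher-GC and 0.045 within the lower-GC libraries, the latter with 7A_c as the only 7A library. With the read GC group as a block it was 0.198, against 0.238 over all genes. Median-of-ratios scaling gave 45 higher and 50 lower, where 46.7% of all genes were called, and quantile normalization gave 49 and 50, where 48.6% were called. The 2 day comparisons share no library, but both came from the single fit and used the same estimate of spread per gene. Called in both were 70 genes, 43 higher and 27 lower in each, with 0 of opposite direction. Another 23 were called in control fruit only and 24 in coated fruit only, and 95 in neither. This overlap was not counted over all genes tested, of which 45.9% were called in control and 47.3% in coated fruit. It therefore describes the 212 genes without showing whether they differ from other genes.

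The rises at the head of the list started from low levels at day 1. Ma00_g02920 (288 bp, 22639072 to 22639359) had 41.0, 40.0 and 56.7 FPKM in 7A, 52.5, 57.0 and 86.1 FPKM in 7K, 1.01, 1.90 and 0 FPKM in 1A, and 0.568, 0.502 and 1.55 FPKM in 1K. The log2 difference was 5.15 (SE 0.38, adjusted p = 2.67e-06) in control fruit and 4.69 (SE 0.38, adjusted p = 4.15e-06) in coated fruit. All 6 day 7 libraries exceeded all 6 day 1 libraries.

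Ma00_g00350 (2196 bp, 952979 to 955174) reached a higher level. It had 224, 278 and 135 FPKM in 7A and 299, 299 and 243 FPKM in 7K, against 6.57, 5.91 and 11.1 FPKM in 1A and 9.59, 8.33 and 8.81 FPKM in 1K. This is a log2 difference of 4.82 (SE 0.28, adjusted p = 6.25e-07) in control fruit and 4.57 (SE 0.28, adjusted p = 6.05e-07) in coated fruit. Ma00_g02730 (6992 bp, 20195501 to 20202492) was the most abundant of the named genes that rose, with 312, 327 and 329 FPKM in 7A, 389.9, 446 and 498 FPKM in 7K, 67.4, 65.3 and 56.2 FPKM in 1A, and 58.2, 62.6 and 76.3 FPKM in 1K. Its replicates lay close together, and the rise was 2.74 (SE 0.15, adjusted p = 5.23e-07) in control and 2.34 (SE 0.15, adjusted p = 9.03e-07) in coated fruit.

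The rise of Ma00_g02460 (701 bp, 17815532 to 17816232) differed in size between coatings without passing the test of that difference. Values were 10.97, 11.1 and 21.2 FPKM in 7A, 20.1, 39.4 and 61.8 FPKM in 7K, 1.84, 2.11 and 1.44 FPKM in 1A, and 1.64, 0.449 and 1.53 FPKM in 1K. The log2 difference was 4.14 in control fruit (adjusted p = 1.72e-05) and 2.41 in coated fruit (adjusted p = 0.000658), and the interaction of -1.74 had an adjusted p of 0.167. Ma00_g00140 (3024 bp) rose by 3.79 and 3.21 in control and coated fruit, and Ma00_g01420 (3854 bp) by 2.49 and 1.74.

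Ma00_g04010, which spans 23693 bp (33471095 to 33494787), rose with a wide spread. Its values were 54.5, 61.9 and 13.4 FPKM in 7A, 52.5, 41.7 and 16.6 FPKM in 7K, 1.93, 0.351 and 4.89 FPKM in 1A, and 4.96, 3.74 and 2.09 FPKM in 1K. The lowest value of each group came from a lower-GC library. Even so the groups of each day stood apart, at a log2 difference of 2.95 (SE 0.67, adjusted p = 0.00461) in control and 3.69 (SE 0.67, adjusted p = 0.00118) in coated fruit.

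The shortest named locus that rose was Ma00_g04970, with 147 bp at 43318483 to 43318629. It had 98.2, 78.8 and 152 FPKM in 7A and 71.3, 59.2 and 102 FPKM in 7K, against 0, 7.19 and 7.58 FPKM in 1A and 0, 6.06 and 14.0 FPKM in 1K. These FPKM rest on few fragments, since the confidence bounds imply at most 17 in a library. Ma00_g03310 (717 bp, 28177034 to 28177750) and Ma00_g03290 (309 bp, 28158391 to 28158699) lie near each other. Ma00_g03310 rose by 2.20 in control fruit (SE 0.46, adjusted p = 0.00269) and 2.00 in coated fruit (SE 0.46, adjusted p = 0.00462).

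For Ma00_g03290 the coated comparison rested partly on a single library. The values were 23.9, 33.1 and 298 FPKM in 7A, 28.0, 45.8 and 76.9 FPKM in 7K, 16.4, 12.6 and 10.7 FPKM in 1A, and 10.7, 9.03 and 8.85 FPKM in 1K. Its log2 difference in coated fruit was 2.18 (SE 0.76, adjusted p = 0.0361) and 1.06 without 7A_c. The call was lost without 1A_a, 1A_b, 1A_c or 7K_b, and the adjusted p ran from 0.00135 to 0.117 over the alternatives.

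**Figure D4:**
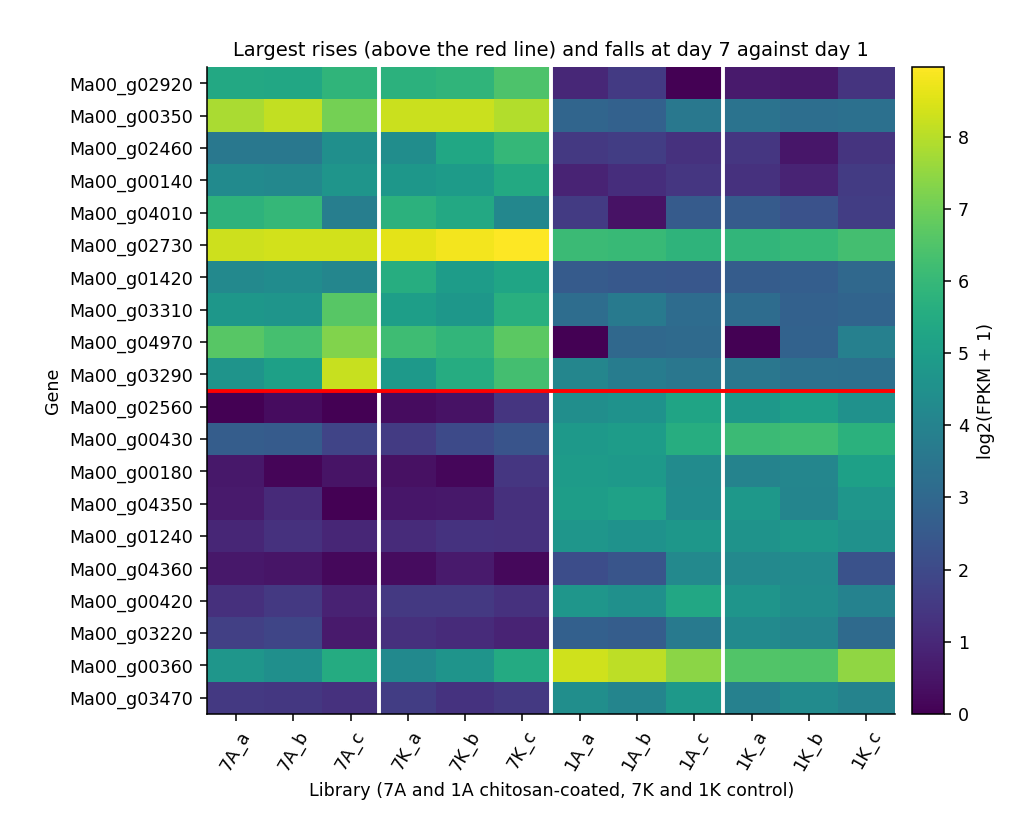
FPKM of unplaced genes named for the day comparisons, with 1 added and on a logarithmic scale. The 12 libraries are in the order 7A, 7K, 1A and 1K. Genes that rose, such as Ma00_g02920 and Ma00_g00350, have day 7 values of both coatings above their day 1 values. Genes that fell, such as Ma00_g02560 and Ma00_g01240, have them below.

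The fall at the head of the list ended near the limit of detection. Ma00_g02560 (1872 bp, 18758368 to 18760239) had 0, 0.238 and 0 FPKM in 7A and 0.218, 0.355 and 1.62 FPKM in 7K, against 20.5, 22.6 and 36.9 FPKM in 1A and 26.5, 32.7 and 22.2 FPKM in 1K. It fell by 4.09 on the log2 scale (SE 0.31, adjusted p = 3.64e-06) in control fruit and by 4.64 (SE 0.31, adjusted p = 1.25e-06) in coated fruit. Its 6 day 7 values were all at or below 1.62 FPKM.

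Ma00_g01240 (1996 bp, 5295624 to 5297619) showed the smallest error among the named falls. It had 0.944, 1.42 and 0.933 FPKM in 7A and 1.14, 1.51 and 1.45 FPKM in 7K, against 24.8, 22.8 and 25.5 FPKM in 1A and 23.1, 26.7 and 21.9 FPKM in 1K. The log2 difference was -3.40 in control fruit (SE 0.16, adjusted p = 1.86e-07) and -3.60 in coated fruit (SE 0.16, adjusted p = 1.1e-07). Neither read GC group nor coating set these libraries apart within a day.

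Some of the named falls came from adjacent loci. Ma00_g00420 (10644 bp, 1199300 to 1209943) had 1.38, 1.79 and 0.832 FPKM in 7A and 1.81, 1.79 and 1.43 FPKM in 7K, against 25.2, 21.4 and 40.9 FPKM in 1A and 24.8, 19.9 and 14.6 FPKM in 1K. Ma00_g00430 (3805 bp, 1211727 to 1215531) had 5.26, 4.91 and 2.56 FPKM in 7A and 1.96, 3.04 and 3.96 FPKM in 7K, against 27.9, 30.1 and 47.2 FPKM in 1A and 67.9, 70.9 and 51.6 FPKM in 1K. Ma00_g00420 fell by 2.93 in control and by 3.66 in coated fruit on the log2 scale, and Ma00_g00430 fell by 4.03 and by 2.79.

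Ma00_g04350 and Ma00_g04360 are also adjacent. Ma00_g04350 (585 bp, 36571664 to 36572248) had 0.578, 1.11 and 0 FPKM in 7A and 0.453, 0.489 and 1.35 FPKM in 7K, against 30.7, 33.6 and 19.7 FPKM in 1A and 26.7, 15.8 and 25.04 FPKM in 1K. Ma00_g04360 (1020 bp, 36572666 to 36573685) had 0.495, 0.408 and 0.136 FPKM in 7A and 0.219, 0.554 and 0.147 FPKM in 7K, against 3.30, 4.20 and 17.5 FPKM in 1A and 17.5, 18.8 and 3.77 FPKM in 1K. At day 1 these neighbours differed in how they varied. The 3 lowest day 1 values of Ma00_g04360 were the 3 lower-GC libraries, whereas the 2 highest day 1 values of Ma00_g04350 came from lower-GC libraries. The next locus, Ma00_g04370, fell as well, by 1.53 in control fruit and by 2.07 in coated fruit on the log2 scale (adjusted p = 0.000297 and 3.53e-05). It lies outside the rule for named genes, like the run of Ma00_g02940, Ma00_g02950 and Ma00_g02960, in which each gene fell in both coatings, and these were named after their values were seen. Ma00_g00180, Ma00_g03220 and Ma00_g03470 also fell in both coatings, between 1.63 (Ma00_g03220, coated fruit) and 4.30 (Ma00_g00180, coated fruit) on the log2 scale.

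No unplaced gene was detected in all 6 day 7 libraries and listed at 0 in all 6 day 1 libraries, or the reverse, and of placed genes 0.257% and 0.243% did so. In control fruit, 8 unplaced genes (1.47%) were detected in all of 7K and in none of 1K, against 1.17% of placed genes, and 2 (0.368%) the other way round, against 0.555%. For 7A and 1A the counts were 4 (0.737%) and 5 (0.921%), against 0.771% and 1.04% of placed genes.

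Coating was compared at each day, as chitosan-coated minus control. At day 1, 9 of the 212 unplaced genes (4.25%) differed between 1A and 1K, against 5.63% of all genes tested. Of these, 8 were higher in coated fruit (background 3.46%) and 1 was lower (background 2.16%). The groups did not overlap in 39 genes (18.4%, background 21.6%), and the median difference was -0.12, against -0.08 over all genes. The count moved with single libraries, and so did the share of all genes called, given here in parentheses. It was 0 without 1A_a (2.31%), 1 without 1A_b (3.2%) and 5 without 1A_c (4.08%). Without 1K_a it was 0 (2.68%), without 1K_b 1 (3.08%) and without 1K_c 6 (4.32%). With only 1A and 1K in the fit 0 were called, where 2.99% of all genes were called. With the read GC group as a block 43 were called, 20 higher and 23 lower, where 25.8% of all genes were called.

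Ma00_g02720 (3073 bp, 20191912 to 20194984) had the highest level of the 9. It had 1624, 1639 and 1018 FPKM in 1A, against 338, 388 and 658 FPKM in 1K. At day 7 it had 222, 201 and 287 FPKM in 7A, against 146, 149 and 279 FPKM in 7K. The day 1 libraries of the 2 treatments did not overlap, while those of day 7 did. Coating at day 1 gave a log2 difference of 1.66 (SE 0.33, adjusted p = 0.0151), which was 1.49 within the higher-GC and 1.31 within the lower-GC libraries, and coating at day 7 gave 0.36 (SE 0.33, adjusted p = 1.0). The interaction of -1.30 had an adjusted p of 0.222, so a difference between the days was not shown. This gene fell with day in control fruit (log2 difference -1.27, adjusted p = 0.00948) and in coated fruit (log2 difference -2.57, adjusted p = 0.000116).

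Ma00_g05070 (1525 bp, 44042829 to 44044353) had 180.0, 149 and 60.6 FPKM in 1A, against 26.9, 24.7 and 51.0 FPKM in 1K. Its day 7 values were 14.8, 15.9 and 21.9 FPKM in 7A, against 17.8, 18.9 and 29.5 FPKM in 7K. Within 1A the highest values came from the lower-GC libraries, and the same was true of 1K. The log2 difference at day 1 was 1.83 (SE 0.41, adjusted p = 0.0253), with 1.20 within the higher-GC and 1.67 within the lower-GC libraries. Over the alternatives its adjusted p ran from 9.58e-06 to 0.125, and that of Ma00_g02720 from 2.57e-06 to 0.0802.

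The other genes called for coating at day 1 changed less. Ma00_g03900 (5039 bp, 32425375 to 32430413) had 232, 213 and 197 FPKM in 1A, against 123, 120.2 and 143 FPKM in 1K, and 99.5, 97.9 and 97.6 FPKM in 7A, against 92.4, 87.1 and 119 FPKM in 7K. Its log2 difference was 0.73 at day 1 (SE 0.15, adjusted p = 0.0165) and -0.002 at day 7 (SE 0.15, adjusted p = 1.0). Ma00_g00310 (1488 bp) had 7.37, 6.596 and 5.55 FPKM in 1A, against 2.98, 2.92 and 4.003 FPKM in 1K, a log2 difference of 0.80 (adjusted p = 0.0171). Ma00_g02810 (594 bp) averaged 3.90 ± 0.73 FPKM in 1A and 1.54 ± 0.46 FPKM in 1K, and Ma00_g01460 (3098 bp) averaged 4.24 ± 1.20 FPKM in 1A and 1.79 ± 0.18 FPKM in 1K (SD, n = 3 each), at adjusted p-values of 0.0303 and 0.0216. These are low levels, and the confidence bounds of Ma00_g02810 imply 18.9 to 31.9 fragments in the 1A libraries.

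Ma00_g02940 (1874 bp), named here after its values were seen, had 1.39, 2.18 and 2.09 FPKM in 1A, against 0.716, 0.937 and 0.556 FPKM in 1K (log2 difference 0.73, adjusted p = 0.0203). Ma00_g03810 (4846 bp, 31335292 to 31340137) was the gene that was lower in coated fruit. It had 50.3, 49.7 and 46.8 FPKM in 1A, against 69.8, 68.7 and 73.7 FPKM in 1K, a log2 difference of -0.52 (SE 0.12, adjusted p = 0.0271). By day 7 both treatments were at a common level, with 38.6, 36.2 and 36.3 FPKM in 7A, against 39.3, 34.0 and 40.5 FPKM in 7K.

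**Figure D5:**
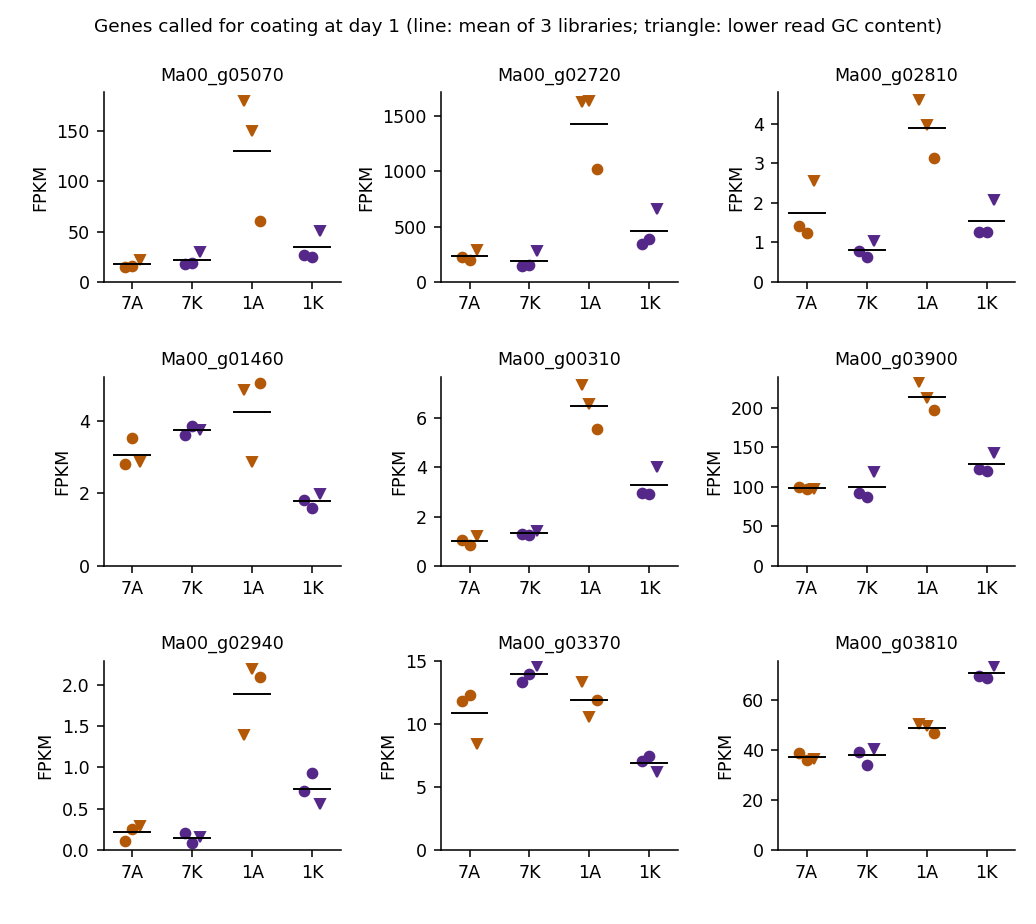
FPKM of unplaced genes named for coating at day 1, with a point for each of the 12 libraries in the order 7A, 7K, 1A and 1K and the read GC group marked. Ma00_g02720 has 1018 to 1639 FPKM in 1A against 338 to 658 FPKM in 1K, while 7A (201 to 287 FPKM) and 7K (146 to 279 FPKM) overlap.

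At day 7, 0 of the 212 unplaced genes differed between 7A and 7K in limma, against 0.142% of all genes tested. At an unadjusted p under 0.05 there were 19 (8.96%, against 7.64% of all genes tested). The fit by voom on implied fragments also called 0, against 0.0861% of all genes tested. The groups did not overlap in 28 genes (13.2%, background 11.8%), and the median difference was -0.12, against -0.13 over all genes. Same-numbered libraries of these groups deviated together as well, as did other-numbered ones of the same read GC group. The fit of the 2 groups with the replicate block called 0, against 0.349% of all genes tested. With the read GC group as a block 16 were called, 2 higher and 14 lower in coated fruit, where 9.08% of all genes were called.

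The difference of the coating effect between days was called in 1 of the 212 genes, Ma00_g03370 (4500 bp, 28667010 to 28671509), against 2.38% of all genes tested. It had 11.9, 12.3 and 8.40 FPKM in 7A, against 13.3, 13.9 and 14.6 FPKM in 7K, and 13.3, 10.5 and 11.9 FPKM in 1A, against 7.10, 7.45 and 6.22 FPKM in 1K. Coated libraries were thus all above control libraries at day 1 and all below them at day 7, with log2 differences of 0.70 (adjusted p = 0.0349) and -0.35 (adjusted p = 0.7). Control fruit rose with day by 0.92 (SE 0.17, adjusted p = 0.00121), while coated fruit had a day difference of -0.14 (SE 0.17, adjusted p = 0.522). The interaction was -1.06 (SE 0.24, adjusted p = 0.0481). It was called without 7A_c (adjusted p = 0.0489) and lost without any other single library. Over all alternatives the adjusted p ran from 0.00168 to 0.162.

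Loci that follow each other on the joined sequence did not always move together. Over 99 pairs of adjacent tested loci, the median Pearson correlation of log2(FPKM + 1) across the 12 libraries was 0.36, against 0.24 over 12140 adjacent placed pairs. It exceeded 0.5 in 44 unplaced pairs (44.4%, against 36.6% of placed pairs) and was below -0.5 in 11 (11.1%, against 18.9%). The libraries share day, coating and read GC content, so these correlations describe the pairs and are not tests of coupling. Ma00_g00350 and Ma00_g00360, separated by 809 bp, had a correlation of -0.94. Ma00_g00360 (1706 bp, 955984 to 957689) had 24.99, 20.96 and 44.9 FPKM in 7A and 17.95, 23.8 and 43.3 FPKM in 7K, against 320.4, 270.4 and 169 FPKM in 1A and 91.1, 89.1 and 177 FPKM in 1K. It thus fell with day where its neighbour rose, with a log2 difference of -2.05 (SE 0.41, adjusted p = 0.0021) in control fruit and -3.05 (SE 0.41, adjusted p = 0.000153) in coated fruit. Ma00_g02720 and Ma00_g02730, 516 bp apart, formed a like pair (correlation -0.79), in which Ma00_g02730 rose with day and Ma00_g02720 fell.

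As a check on whether the FPKM of unplaced genes hold fragments divided among several loci, the low end of the scale was examined. Where Cufflinks assigns whole fragments, the number implied by the confidence bounds is whole. Among genes with 0.5 to 10 implied fragments, that number was within 0.02 of whole in 83.3% to 92.4% of unplaced genes per library, against 80.5% to 86.3% of placed genes. The difference was 4.54 points on average, from -0.18 to 8.17 points, with 73 to 114 unplaced genes in a library. This measures genes of few fragments only. It does not cover the abundant short loci above, and for those the sharing of fragments with near-identical copies was not tested.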

How the data were processed

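Pulp RNA was sequenced in 12 libraries (TruSeq RNA v2 libraries on a HiSeq 2000), grouped by the labels on day and coating. The authors checked reads with FastQC, used TopHat for mapping (DH Pahang genome, version 2) and Cufflinks for gene FPKM, and the deposited FPKM and their 95% confidence bounds were used. The handling of strand and of fragments that map to several loci is not given in the sources used here, and near-identical copies can share fragments. The fragments implied by a value were computed as (2 × FPKM / (upper bound − FPKM)) squared, and they carry counting error only. Members and tests were chosen with earlier results of these data known.

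FPKM was tested as log2(FPKM + 1) with limma 3.58.1 in R 4.3.3, with an intensity trend, over the 19746 genes of at least 1 FPKM in at least 3 libraries. A single fit held all 12 libraries with 1 mean per group, and 5 contrasts were taken, each with Benjamini-Hochberg adjustment over all genes tested. The fit was also run on simulated data with independent noise. These lacked the read GC structure of the libraries, so the run cannot show how the fit handles it. Shares and medians over members were described without a test. Tables were handled in Python 3.11.15 with numpy 2.4.6, pandas 2.3.3 and scipy 1.17.1, and figures drawn with matplotlib 3.10.9. Locus starts in the deposited tables count from 0 and were raised by 1. A single row has no identifier, a single identifier occurs in more than 1 row, and columns outside FPKM, its bounds, identifiers and loci were not used for values.

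Genes were named by rule from members with an adjusted p under 0.05, no overlap between the groups, and at least 10 implied fragments in at least 3 of the libraries compared. These were the 8 largest rises and 8 largest falls of each day comparison, the 5 of each for coating, 3 of each for the interaction, the 8 of highest mean FPKM and the 4 of smallest spread.

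Same-numbered libraries are not stated to share a fruit or batch. Deviations from the group means correlated above 0.1 in all 3 same-numbered pairs of 7A with 7K (0.712, 0.466 and 0.855) and likewise for 7K with 1K, and these comparisons were therefore also fitted with the replicate number as a block. Over all 18 same-numbered pairs the correlation ran from -0.866 to 0.855 and exceeded 0.1 in 9. Whatever the replicate number, libraries of different groups correlated positively within a read GC group and negatively between read GC groups. For example, 7K_a correlated at 0.603 with 1K_a and at 0.61 with 1K_b. Alternatives were another pseudocount, filters on low FPKM, median-of-ratios scaling, quantile normalization, no trend, voom on implied fragments, only the 2 groups compared, read GC group and replicate number as blocks, and each library left out. Gene lists were not run, since 0 identifiers could be paired with names.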

Additional observations from a re-analysis of the deposited data

Results flagged for a closer look

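Ma00_g03370 was the only tested gene on unplaced sequence whose coating effect differed between the days in the test of that difference. The interaction, coating at day 7 minus coating at day 1, was -1.06 on the log2(FPKM + 1) scale (SE 0.24, limma adjusted p = 0.0481). The gene averaged 10.9 ± 2.14 FPKM in 7A and 14.0 ± 0.63 FPKM in 7K, and 11.9 ± 1.40 FPKM in 1A and 6.92 ± 0.63 FPKM in 1K (SD, n = 3 each). Coated minus control at day 7 gave -0.16 within the higher-GC libraries and -0.73 within the lower-GC libraries. The day 1 values were 0.64 and 0.83 in that order of libraries. The call sits close to the threshold and was lost in 15 of the 22 alternatives that gave a test, with an adjusted p between 0.00168 and 0.162.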

How the results depend on the processing

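Of 42 results for named genes, 31 kept their call under every alternative that gave a test and 0 changed direction. The exceptions were the calls for coating at day 1, the interaction of Ma00_g03370 and the day difference of Ma00_g03290 in coated fruit. In parentheses beside a count is the percentage of all genes tested that the same fit called. With a filter of 5 FPKM the day calls numbered 59 (48.2%) in control and 60 (49.9%) in coated fruit. With the read GC group as a block they were 151 (74.7%) in control fruit, and with quantile normalization added 144 (70.7%) in coated fruit. The replicate block over all 12 libraries moved neither day count by over 1.5 times, and with only the 2 groups compared it called 150 (73.4%) in control fruit. Median-of-ratios scaling turned the median day difference to -0.051 in control and -0.010 in coated fruit. The calls for coating at day 1 were 15 (4.01%) without a filter, 0 (2.99%) with only the 2 groups compared, 5 (4.09%) with the replicate block, 43 (25.8%) with the read GC group as a block and 44 (24.8%) with quantile normalization added. For coating at day 7 these last 2 fits called 16 (9.08%) and 10 (4.16%). The interaction was called in 2 genes with a filter of 5 FPKM, median-of-ratios scaling, no trend or quantile normalization (2.36% to 3.12%), in 0 with a pseudocount of 0.1, the replicate block or voom (1.12% to 1.93%), in 33 (20.0%) with the read GC group as a block and in 30 (17%) with quantile normalization added. Leaving out each library gave 72 to 108 day calls (37.4% to 51.2%) in control fruit and 75 to 112 (37.5% to 56.3%) in coated fruit. For coating the calls were 0 to 11 (2.31% to 6.91%) at day 1 and 0 in every case (0.00512% to 0.113%) at day 7. For the interaction they were 0 to 2 (0.685% to 2.56%). The difference in detection was -15.9 points at 1 FPKM and -11.2 points for loci of at least 1000 bp. The share of the FPKM sum was 2.51% on average and 0.578% without Ma00_g05330. The median log2 level of unplaced genes minus that of placed genes was -0.88, with -2.92 at a pseudocount of 0.1 and -0.33 over detected genes only. The causes of these shifts were not tested.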
